A study of Mus musculus with 6 samples.

Results

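Toll-like receptors and their adaptors were followed through a single-cell survey of immune cells from the brains of mice with an intact or a depleted gut microbiota. The set held 10 named genes of the 19848 in the deposited RNA table: the cell surface receptors Tlr1, Tlr2 and Tlr4, the endosomal receptors Tlr3, Tlr7, Tlr9 and Tlr13, the lipopolysaccharide co-receptors Cd14 and Ly96, and the adaptor Myd88. They were listed by name and not by a cutoff on their values, but with earlier results of these data known. All 10 had a row in the table. The set is described across the authors' cell type labels and across 4 groups of female C57BL/6 mice, with no transgene or mutation named: 12 weeks old on vehicle (young control), 12 weeks old on antibiotics (young antibiotic), 72 weeks old on vehicle (aged control) and 72 weeks old on antibiotics (aged antibiotic). Each group had 6 mice, whose perfused whole brains were digested with a papain-based kit, enriched for mononuclear cells on Percoll and combined into 3 pools. The antibiotics and the length of treatment are not given in the sources used here.

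Toll-like receptors are membrane proteins that sense microbial products through a leucine-rich ectodomain. Tlr2 pairs with Tlr1 or Tlr6 to bind bacterial lipopeptides. Tlr4 binds lipopolysaccharide with Ly96 (the protein MD-2), after Cd14 has delivered it, while Tlr3, Tlr7, Tlr9 and Tlr13 read nucleic acids in endosomes. Most of them signal through Myd88 to NF-kappaB, the exception being Tlr3, which uses the adaptor Ticam1. In the brain, microglia are the best known carriers of these receptors.

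The table held 13052 cells in 12 pools, with 760 to 1590 cells and 5745242 to 13742781 raw UMIs (unique molecular identifiers, counted transcripts) per pool. Each group of 7 microglia or 7 border macrophage markers was highest in the type so labelled, at a summed level of 106.8 per cell in Microglia and 26.2 in BAM (border-associated macrophages). The markers of natural killer cells were highest in the cells labelled ILCs, and only 9 cells carried the label NKCells, so no level is given for them. Ly6CLow cells were highest for Ly6C low monocyte markers (8.58, next Ly6C+Ly6G+ at 7.03) and for dendritic cell markers (4.83, next BCells at 2.74). For natural killer markers Ly6CLow cells came second, at 7.09 against 24.2 in ILCs. The part of this mix in the Ly6CLow results was not tested. Young and aged cells ran in separate wells, so that age and well cannot be told apart, and hashtags 1 to 3 always marked vehicle and 4 to 6 antibiotics, so that arm and hashtag set cannot be told apart. The 2 wells shared 59 cell barcodes. All values below are SCT values, UMI counts that the authors corrected for each cell's depth, averaged per cell within a pool. A lower mean can come from fewer cells above 0 or from a lower value per cell above 0. The share of cells above 0 is given for that reason. It is a share of corrected values, which were not compared with raw counts per gene. A value above 0 is therefore not the same as a UMI seen in that cell.

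Levels are given for the 9 cell types with at least 50 cells. Means and SDs are over pools with at least 10 cells of a type, and no type was tested against another, because the authors' labels may rest on the same RNA. Cd14, which hands lipopolysaccharide to Tlr4, reached 15.6 ± 2.47 per cell in BAM (SD, n = 12 pools), against 6.41 ± 1.66 in Ly6CHigh cells (n = 11) and 4.55 ± 0.48 in Microglia (n = 12). BAM exceeded Microglia for Cd14 in 12 of 12 pools, with a median ratio of 3.32. Ly6CHigh also stood above Microglia by more than the SD of either, while Microglia, Ly6CLow (4.35 ± 1.26) and Ly6C+Ly6G+ (4.32 ± 1.42) lay within one another's spread. Ly96 followed the same first step, with 0.521 ± 0.087 in BAM and 0.319 ± 0.053 in Microglia and BAM higher in 12 of 12 pools. Tlr4 itself was nearly level between them, at 0.290 ± 0.065 in BAM and 0.246 ± 0.041 in Microglia, with BAM higher in 10 of 12 pools. It was lower in Ly6CHigh cells (0.130 ± 0.114), Ly6C+Ly6G+ cells (0.0831 ± 0.0440) and Ly6CLow cells (0.0580 ± 0.0267).

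Tlr2 was spread over all 5 myeloid labels. Its mean was 1.56 ± 0.602 in Ly6CHigh cells, 1.49 ± 0.404 in BAM, 1.26 ± 0.408 in Ly6CLow cells, 1.10 ± 0.392 in Ly6C+Ly6G+ cells and 1.08 ± 0.276 in Microglia, with no step larger than the spread over pools. The lymphoid labels lay below, from 0.257 ± 0.165 in BCells to 0.0871 ± 0.0644 in ILCs. In Ly6CHigh cells of the aged antibiotic group the median depth was 790 raw UMIs, against 14036 in the young control group, and its part in the Ly6CHigh values was not tested. Tlr1, the partner of Tlr2, was low throughout, with 0.181 ± 0.078 in BAM, 0.111 ± 0.016 in Microglia and 0.0952 ± 0.0589 in BCells. Myd88 was highest in Ly6C+Ly6G+ cells (0.487 ± 0.136), followed by Microglia (0.409 ± 0.050) and Ly6CHigh cells (0.357 ± 0.199), and it kept 0.128 to 0.147 in the 4 lymphoid labels.

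Among the endosomal receptors, Tlr3, which reads double-stranded RNA, stood out in Microglia, at 0.264 ± 0.023 against 0.105 ± 0.056 in BAM. BAM exceeded Microglia in 0 of 12 pools. Tlr7, which reads single-stranded RNA, was also highest in Microglia (0.890 ± 0.104), above BAM (0.739 ± 0.146) by slightly more than the larger SD, although 2 of 12 pools had BAM higher; Ly6CHigh cells followed at 0.302 ± 0.188. Tlr13, a mouse sensor of bacterial ribosomal RNA, was highest in Ly6C+Ly6G+ cells (0.528 ± 0.224), with Ly6CHigh cells (0.403 ± 0.177), Microglia (0.386 ± 0.041) and BAM (0.356 ± 0.079) inside that spread. Tlr9, which reads unmethylated CpG DNA, was close to the limit of detection. It was above 0 in 144 of 9403 microglia (1.53%) and in 0 of 487 BCells, which allows a share of up to 0.616%, in 0 of 330 ILCs (up to 0.909%) and in 0 of 352 Ly6C+Ly6G+ cells (up to 0.852%). These limits cover counting error only and concern cells with an SCT value above 0.

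**Figure D1:**
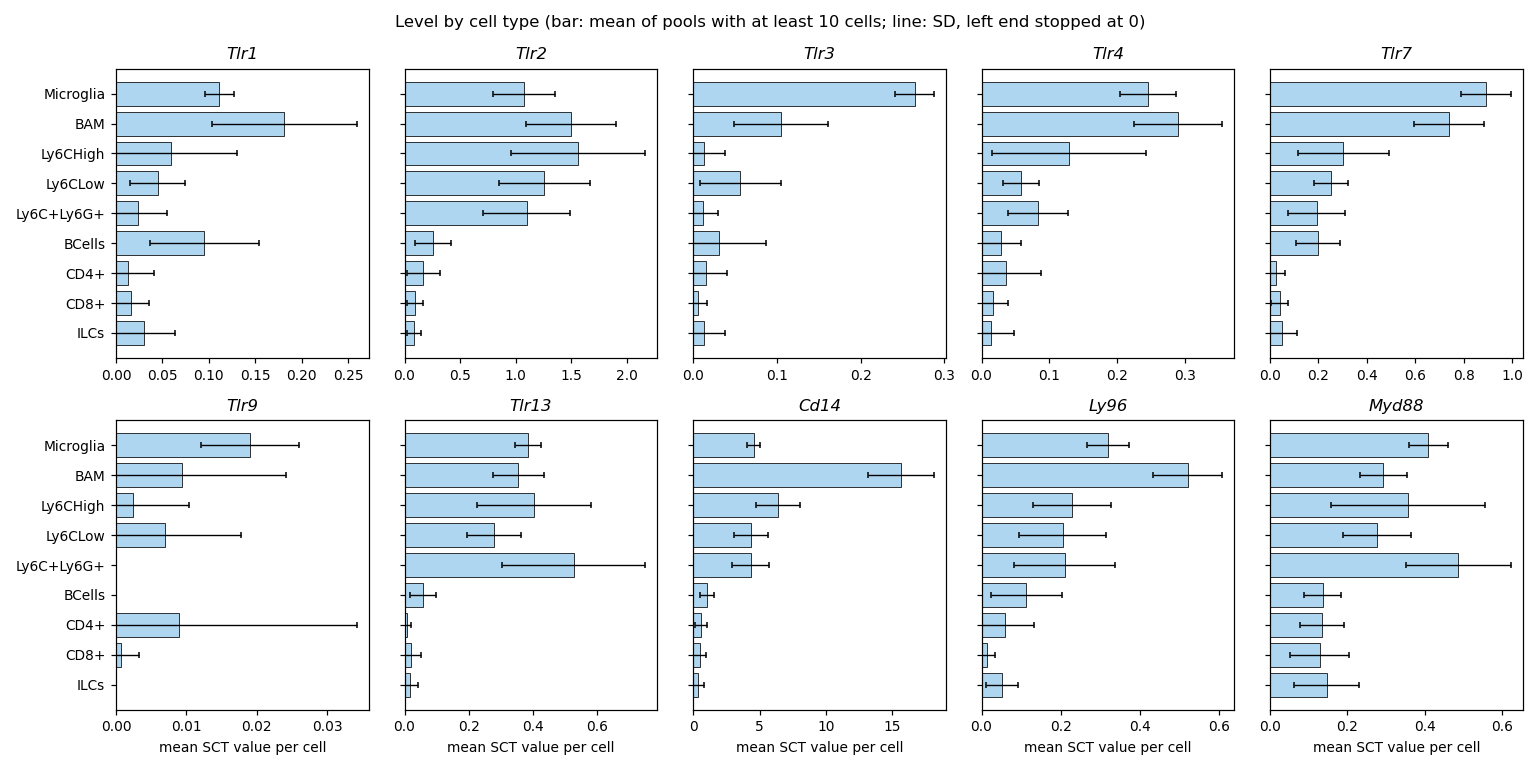
Mean SCT value per cell of each member (horizontal axis, a scale of its own in each panel) in 9 cell types (vertical axis). Bars are means of the pools with at least 10 cells of the type and lines their SD; Cd14 and Ly96 are longest in BAM, Tlr3 in Microglia, and Tlr2 is similar in the first 5 types.

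Values above 0 also occurred in types not known for a gene. Cd14 was above 0 in 36.3% of BCells (median 5070 raw UMIs per cell) and in 13.5% of CD8+ cells (median 7096.5). This compares with 93.0% of Microglia (median 6934) and 98.0% of BAM (median 7610.5). Among BCells the Cd14 share was highest in aged control pool 1, at 60.0%, where 16 of 30 cells had at least 2000 raw UMIs. Aged antibiotic pool 3 followed at 52.7% (44 of 74 cells), and the other pools ran from 19.2% to 36.5%. The source of these values and the part of depth were not tested. Tlr4 was above 0 in 21.0% of Microglia and 1.79% of CD8+ cells, and Ly96 in 25.6% of Microglia and 2.20% of CD8+ cells. Tlr3 was above 0 in 21.4% of Microglia and 0.962% of CD8+ cells.

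Across the means of these 9 types, some genes ran closely parallel to the members. The nearest to Tlr2 among 10837 genes was Atp7a (Pearson r = 0.994), then Il13ra1 (0.986) and Itpripl2 (0.984). Tlr3 was nearest to Soga1 (r = 0.994), Ank2 and Bco2. Lima1 came first for Cd14 (r = 0.978) and for Ly96 (r = 0.979). Tlr4 was nearest to 1600012H06Rik (r = 0.980), Sgpl1 and Crat, and Tlr7 to Rab3il1 (r = 0.988), Tmem86a and Cttnbp2nl. Tlr13 was nearest to Fam214b (r = 0.990), Mapk14 and Arl11, and Myd88 to the receptor Tlr6 (r = 0.970), Fam214b and Clec5a. Tlr1 was nearest to BC017643 (r = 0.971). Tlr9 was nearest to Nbea (r = 0.981), but it was above 0 in 1.53% of Microglia and in 0 BCells, ILCs or Ly6C+Ly6G+ cells. Its r therefore rests on values close to 0. All 9 points come from the same libraries but differ in depth, with medians from 5070 raw UMIs in BCells to 10339 in Ly6CHigh cells. The correlations are descriptions without a test.

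The first question of the design was whether depleting the microbiota changes these sensors. In microglia of aged mice, the lipopolysaccharide receptor pair fell with antibiotics: Ly96 and Tlr4 were both lower, and no other member passed the test. Ly96 had a mean of 0.319, 0.420 and 0.363 per microglia in the 3 aged control pools and 0.256, 0.237 and 0.269 in the 3 aged antibiotic pools. Every antibiotic pool lay below every control pool. The log2 difference was -0.45 (SE 0.084, adjusted p = 0.0061 by limma with Benjamini-Hochberg adjustment over the 8759 genes tested, n = 3 against 3 pools). Tlr4 measured 0.290, 0.292 and 0.231 in the aged control pools and 0.190, 0.167 and 0.202 in the aged antibiotic pools. The groups again did not overlap, with a log2 difference of -0.44 (SE 0.091, limma adjusted p = 0.012). These were 2 of the 9 members tested (Tlr9 was too low), beside 283 of all genes, or 3.23%, called in the same comparison, and 22.1% of all genes did not overlap between those pools. The Ly96 call held under all 20 alternatives. The Tlr4 call held under 16 of 20 and was lost with no filter (adjusted p = 0.0586) and without aged control pool 1 (0.0596), aged control pool 2 (0.0692) or aged antibiotic pool 2 (0.0739).

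In young microglia neither gene passed. Tlr4 stayed at 0.258, 0.243 and 0.297 in young control pools and 0.262, 0.255 and 0.263 in young antibiotic pools. Ly96 was 0.356 in each of the 3 young control pools and 0.277, 0.302 and 0.320 in the young antibiotic pools, so that the groups did not overlap, as was the case for 16.1% of all genes. Its log2 difference of -0.22 (SE 0.084) did not pass (limma adjusted p = 0.36). None of the 9 members passed in the young, where 12 genes of all, or 0.137%, were called; 2 of the 9 members, Ly96 and Tlr2, had an unadjusted p under 0.05, as did 10.6% of all genes. Over both ages, the mean log2 difference was -0.33 for Ly96 (SE 0.059, limma adjusted p = 0.0029) and -0.23 for Tlr4 (SE 0.064, limma adjusted p = 0.0436), 2 members beside 5.4% of all genes. The Tlr4 value over both ages passed under only 8 of 20 alternatives, the highest adjusted p being 0.117, and was lost on leaving out any 1 of 9 pools of the 12.

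Whether the antibiotic difference itself changed with age was tested as the difference of differences. For Tlr4 this was -0.41 (SE 0.129, unadjusted p = 0.0047, limma adjusted p = 0.584), and for Ly96 -0.23 (SE 0.119, limma adjusted p = 0.783). No member and no gene passed (0%), although 579 genes had an unadjusted p under 0.05 and the lowest adjusted p was 0.141. A difference between the ages in the response to antibiotics was therefore not shown for any member by this test.

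**Figure D2:**
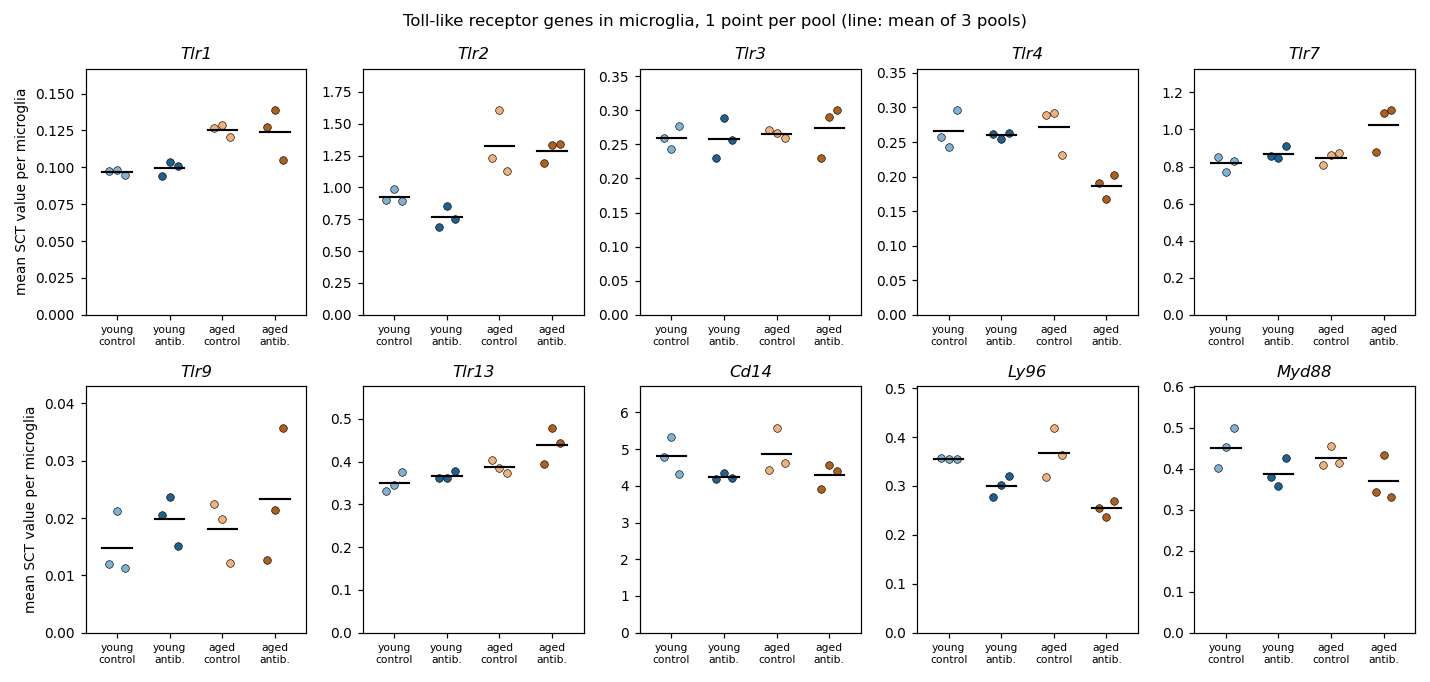
Mean SCT value per microglia (vertical axis, from 0, a scale of its own in each panel) of the 10 members in each of the 12 pools, by group (horizontal axis). Points are pools and lines are the mean of 3 pools; Ly96 and Tlr4 sit lowest in the aged antibiotic pools, and Tlr2 is higher in all aged pools than in all young pools.

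The share of microglia above 0 was lower for both genes of the pair in the aged antibiotic pools. Ly96 was above 0 in 24.6%, 33.1% and 29.2% of microglia in the aged control pools and in 19.8%, 18.9% and 21.7% in the aged antibiotic pools, a difference of the group means of -8.85 percentage points. In the young the difference was -2.23 points, with 27.5% ± 0.402 in control and 25.3% ± 1.11 in antibiotic pools (SD, n = 3 each). Among cells above 0, the mean Ly96 value was 1.27 in the aged without antibiotics and 1.26 with them, and in the young 1.30 and 1.19. The mean Tlr4 value of cells above 0 was 1.20 and 1.12 in the aged, and 1.16 and 1.20 in the young. The means of cells above 0 were not tested. An exact permutation test within ages (two-sided, 400 arrangements) gave p = 0.005 for Ly96, the smallest those arrangements can give. That p was shared by 341 of the 8759 genes, and the value adjusted over all of them was 0.128. The share with Tlr4 went from 22.6% ± 2.34 to 16.6% ± 2.23 in the aged and from 23.0% ± 2.37 to 21.7% ± 1.01 in the young (exact permutation p = 0.04, adjusted over all genes 0.256).

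Tlr4 and Ly96 were both above 0 in 6.57%, 9.95% and 6.98% of the microglia of aged control pools. In aged antibiotic pools both were above 0 in 3.65%, 2.72% and 4.42%. Young control pools had 6.72%, 7.21% and 7.96%, and young antibiotic pools 5.31%, 5.78% and 6.91%. The aged antibiotic pools were the 3 lowest of the 12. With Cd14 required as well, the group means were 6.87% and 5.76% in the young and 7.17% and 3.36% in the aged, each time without and with antibiotics. No test was made on these combined shares, which rest on the members' own values. Over all 4 groups together, Tlr4 was above 0 in 24.3% of microglia with Ly96 above 0 (median 7461 raw UMIs) and in 19.9% of the others (median 6728). The cells with Ly96 above 0 were thus also the deeper ones. By group, these Tlr4 shares were 26.6% and 22.0% in young control and 24.3% and 21.1% in young antibiotic microglia. In the aged they were 26.7% and 20.6% in control and 17.1% and 15.8% in antibiotic microglia.

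**Figure D3:**
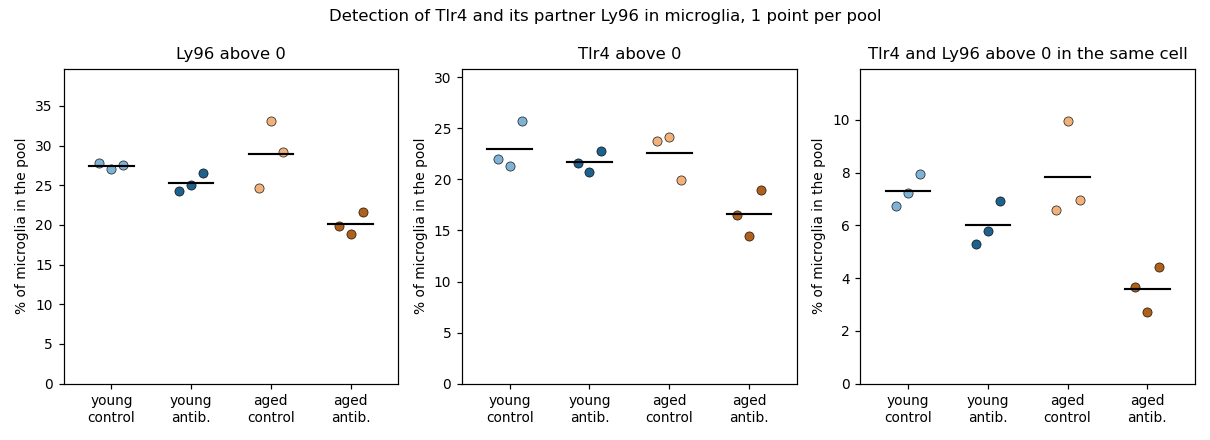
Percent of microglia in each pool (vertical axis) with a value above 0 for Ly96, for Tlr4 and for both in the same cell, by group (horizontal axis); points are pools and lines the means of 3 pools. In all panels the 3 aged antibiotic pools lie below the 3 aged control pools, in the last between 2.72% and 4.42%.

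Other measures moved between the same aged groups of microglia. The summed level of 7 neutrophil markers, all above 0, was 2.16 in aged control microglia (pools 2.04 to 2.31) and 3.49 after antibiotics (2.43 to 4.25), and in the young 6.00 (3.59 to 7.62) and 14.6 (3.65 to 21.6). The 7 microglia markers summed to 103.0 (98.9 to 107.8) and 97.9 (95.7 to 101.3), and 12 genes induced by tissue dissociation to 275.9 (273.1 to 278.6) and 282.7 (279.7 to 286.4). Cells under 2000 raw UMIs made up 12.3% and 14.6%. With only the cells of at least 2000 raw UMIs, the aged log2 difference was -0.42 for Ly96 (limma adjusted p = 0.0048) and -0.45 for Tlr4 (limma adjusted p = 0.0058). The part of the marker lists in these results was not tested.

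Cd14 and Myd88 were lower with antibiotics in both ages by a like amount and did not pass. Cd14 had a mean of 4.43, 5.59 and 4.62 in aged control pools and 3.90, 4.57 and 4.41 in aged antibiotic pools, which overlapped. Young control pools had 4.79, 5.32 and 4.32, and young antibiotic pools 4.18, 4.34 and 4.20. The log2 difference over both ages was -0.18 for Cd14 (SE 0.061, limma adjusted p = 0.0991). Myd88, the adaptor of most of the receptors, went from 0.452 ± 0.050 to 0.389 ± 0.035 in the young and from 0.427 ± 0.025 to 0.370 ± 0.057 in the aged (SD, n = 3 pools each). Its log2 difference over both ages was -0.19 (SE 0.067, limma adjusted p = 0.0978), and it passed without aged antibiotic pool 2 (-0.25, adjusted p = 0.0336) and with cells of at least 2000 raw UMIs (-0.21, adjusted p = 0.0446).

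Promoters of 6 of the 10 members were found in the RefSeq table (build GRCm38.p6, 250 bases before to 50 after each gene start): Tlr1, Tlr2, Tlr3, Tlr9, Tlr13 and Myd88. They were searched on both strands for GGAAGT, the core recognised by ETS factors such as the myeloid regulator PU.1, a motif chosen after the promoters had been seen. The following 30-base stretches are shown because they hold each match found in a member; capitals mark the match, and ACTTCC is the same core on the other strand.
Tlr2 upstream match: tgctggcgaccgGGAAGTtcggggccctga
Tlr2 downstream match: tccccttccctcACTTCCaggtcttcagtc
Tlr1: ttaaatgttggaGGAAGTaggagcttgaat
Myd88: aggagacttaagGGAAGTaggaaactccac
Tlr9: agtgaaagtgtcACTTCCtcaattctctga
The Tlr2 stretches lie on the minus strand at chr3:83841621-83841650, with the match 30 bases before the gene start, and at chr3:83841581-83841610, with the match from base 11 after it. That of Tlr1 lies at chr5:64933562-64933591 (minus strand, 21 bases before the start), that of Myd88 at chr9:119340004-119340033 (minus strand, 3 bases before) and that of Tlr9 at chr9:106222596-106222625 (plus strand, from base 11 after the start). The second promoter listed for Tlr1 and those of Tlr3 and Tlr13 held no match in their 300 bases. The core was present in 23.8% of all 32851 promoters of that length, so a match is common and is given as a description only.

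Age was the second question of the design, and Tlr2 was the member that rose with it in microglia, in controls as well as under antibiotics. It measured 0.899, 0.987 and 0.891 in young control pools and 1.23, 1.61 and 1.13 in aged control pools. All aged pools were above all young ones, aged control pool 2 being the highest, and 19.6% of all genes did not overlap between those pools. The log2 difference was 0.48 (SE 0.101, limma adjusted p = 0.0119), the only call among the 9 members tested in a comparison with 233 called genes (2.66%). It was lost with no filter (adjusted p = 0.0927) and without young control pool 1 (0.0583), young control pool 3 (0.0518) or aged control pool 2 (0.0734, with a log2 difference of 0.33). Under antibiotics, Tlr2 measured 0.687, 0.857 and 0.750 in the young pools and 1.19, 1.33 and 1.34 in the aged pools. There the log2 difference was 0.72 (SE 0.101, limma adjusted p = 0.000187), and it passed under all 20 alternatives. In that comparison 539 genes, or 6.15%, were called, and a second member passed, Tlr4, at -0.39 (SE 0.091, limma adjusted p = 0.0142). This value rests on the same aged antibiotic pools as the antibiotic comparison above; without aged antibiotic pool 2 the adjusted p was 0.0821.

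Within the young, Tlr2 was lower in every antibiotic pool than in every control pool, where 16.1% of all genes did not overlap. Its log2 difference of -0.26 (SE 0.101) did not pass (limma adjusted p = 0.344). Within the aged Tlr2 differed by less than its SE. Tlr2 was above 0 in 49.6% ± 0.972 of young control, 43.1% ± 2.45 of young antibiotic, 53.4% ± 4.60 of aged control and 51.1% ± 2.86 of aged antibiotic microglia. In controls these shares overlapped between the ages, at 49.4%, 48.7% and 50.6% in young pools and 51.3%, 58.7% and 50.2% in aged pools. Under antibiotics the highest young share was 45.2% and the lowest aged share 48.1%. Among cells above 0 the mean value was 1.87, 1.77, 2.46 and 2.52 in the same order of groups. The level per positive cell was thus higher with age in both arms. Neither the share nor this level was tested for age. Tlr1 measured 0.0969 ± 0.0018 in young control and 0.125 ± 0.004 in aged control pools, which did not overlap (nor did 19.6% of all genes), with a log2 difference of 0.26 (SE 0.090, limma adjusted p = 0.181). Under antibiotics its age difference was 0.21 (SE 0.090, limma adjusted p = 0.189). Microglia with Tlr1 and Tlr2 both above 0 made up 4.63% ± 0.552 of the cells in young and 6.77% ± 1.08 in aged control pools. The antibiotic difference of Tlr1 stayed below its SE in both ages.

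Between young and aged control microglia the dissociation genes summed to 314.7 (pools 309.1 to 321.7) and 275.9 (273.1 to 278.6), the neutrophil markers to 6.00 and 2.16, and 5 B cell markers went from 0.41 (0.37 to 0.46) to 1.15 (1.05 to 1.28), with all of those markers above 0. Their part in the age differences was not tested. The median depth was 6927 raw UMIs in young control and 7154.5 in aged control microglia.

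**Figure D4:**
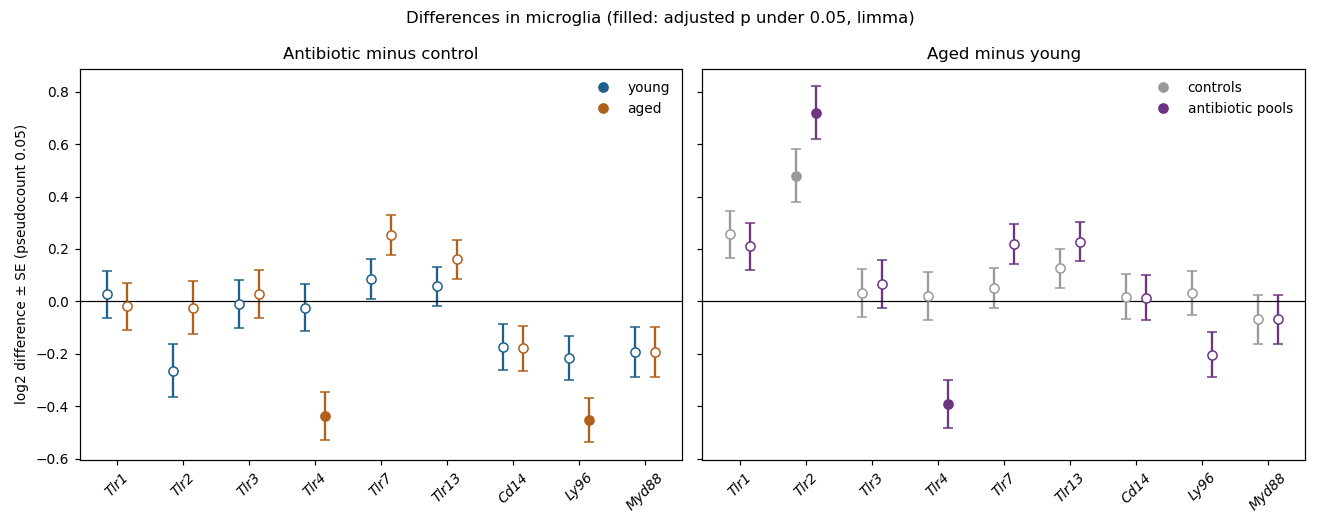
Log2 difference in microglia (vertical axis, pseudocount 0.05) of the 9 members tested (horizontal axis), antibiotic minus control at each age and aged minus young in each arm; points are estimates, lines their SE, and filled points passed limma at an adjusted p of 0.05. Ly96 and Tlr4 are filled and below 0 in the aged on the left, and Tlr2 is filled and above 0 in both arms on the right.

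Among the endosomal receptors, Tlr7 and Tlr13 were higher under antibiotics in aged microglia, without passing. Tlr7 measured 0.810, 0.862 and 0.874 in aged control pools and 0.879, 1.09 and 1.11 in aged antibiotic pools, which did not overlap (nor did 22.1% of all genes). Its log2 difference was 0.25 (SE 0.076, limma adjusted p = 0.0725). It passed under 4 of 20 alternatives. Without aged antibiotic pool 1 the log2 difference was 0.36 with an adjusted p of 0.00936. The others were every pool scaled to the same total (0.26, adjusted p = 0.0417), cells of at least 2000 raw UMIs (0.27, adjusted p = 0.0346) and per-cell log values (0.11, adjusted p = 0.0332). In the young, Tlr7 measured 0.817 ± 0.042 without and 0.870 ± 0.036 with antibiotics. Tlr13 had an aged log2 difference of 0.16 (SE 0.074, limma adjusted p = 0.255) and an age difference under antibiotics of 0.23 (SE 0.074, limma adjusted p = 0.0784), from 0.367 ± 0.010 to 0.440 ± 0.042; without aged antibiotic pool 1 the latter passed (0.29, adjusted p = 0.0304). Tlr3 was the steadiest: its group means ran from 0.258 to 0.274, and its antibiotic difference stayed below its SE at each age. Tlr9 had pool means from 0.0112 to 0.0358 and was not tested.

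The wider pathway was read with a list of 81 genes that includes the 10 members; 62 were tested in microglia. In the aged, 7 of the 62 passed with antibiotics, 2 higher and 5 lower, beside the 3.23% of all genes given above. The median log2 difference of the 62 was -0.03, against -0.01 for all genes. Tlr12, a receptor of parasite profilin, was 0.149, 0.152 and 0.147 in aged control and 0.092, 0.089 and 0.067 in aged antibiotic pools (log2 -0.59, SE 0.103, limma adjusted p = 0.00383). Cd180, a relative of Tlr4 that restrains it on some cells, went from 1.11 ± 0.065 to 0.881 ± 0.014 (log2 -0.31, limma adjusted p = 0.0307). The chaperone Hsp90b1, which folds most Toll-like receptors and is named here after its value was seen, went from 3.34 ± 0.159 to 2.72 ± 0.157 (log2 -0.29, limma adjusted p = 0.0305). The calls of Cd180 (adjusted p 0.0525 to 0.136) and Hsp90b1 (0.0514 to 0.109) were both lost without aged control pool 1 or 2 or any 1 of the aged antibiotic pools. Those lower were thus 3 receptors, 1 co-receptor and 1 chaperone.

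The 2 genes that rose were Tab1, which activates the kinase Map3k7, and Dusp1, a phosphatase that shuts down MAP kinases. Tab1 measured 0.087, 0.067 and 0.079 in aged control and 0.154, 0.139 and 0.139 in aged antibiotic pools (log2 0.61, SE 0.095, limma adjusted p = 0.00189). Dusp1 measured 17.0, 17.8 and 19.8 in aged control and 24.1, 24.9 and 24.0 in aged antibiotic pools (log2 0.42, SE 0.074, limma adjusted p = 0.00413). Dusp1 also belongs to the 12 dissociation genes given above, whose sum was higher in the same pools. None of the 5 adaptors tested, the 7 transcription factors or the 13 induced genes passed in the aged. Over both ages 8 of 62 passed, the added one being the cytokine Il1a (log2 -0.45, SE 0.090, limma adjusted p = 0.00669; 0.0735 with no filter). The calls over both ages held under 20 of 20 alternatives for Tlr12 and Tab1, 15 for Dusp1, 14 for Cd180 and 13 for Hsp90b1, with single pools among those that ended them: young control pool 3 or aged control pool 1 or 2 for Dusp1, young control pool 3, young antibiotic pool 1, aged control pool 2 or aged antibiotic pool 2 for Cd180, and young control pool 1 or 3, young antibiotic pool 1 or aged control pool 1 or 2 for Hsp90b1. Their adjusted p then lay between 0.0503 and 0.0717. Il1a went from 3.64 ± 0.504 to 2.66 ± 0.401 in the young and from 4.41 ± 0.874 to 3.19 ± 0.374 in the aged. In the young alone 0 of 62 passed in limma, beside 0.137% of all genes. The median log2 difference of the 62 was -0.07, against -0.02 for all genes.

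The third reading of the list was by age. In controls 6 of 62 passed, 5 higher and 1 lower, beside 2.66% of all genes. Besides Tlr2 these were Tlr12 (log2 0.51, limma adjusted p = 0.00846), the cytokine Tnf (0.80, limma adjusted p = 0.0222), the chemokines Ccl2 (0.90, limma adjusted p = 0.0331) and Ccl5 (1.17, limma adjusted p = 0.000791), and Dusp1, which fell by 0.30 (limma adjusted p = 0.0345). Ccl5 rose from 0.0813 ± 0.0134 to 0.257 ± 0.111 and is also a gene of T and NK cells; 4 CD8 T cell markers summed to 0.01 in young control and 0.05 in aged control microglia. The calls of Tnf (adjusted p 0.0744 to 0.151), Ccl2 (0.0973 to 0.201) and Dusp1 (0.0516 to 0.193) were lost without young control pool 1 or 2 or aged control pool 1 or 2, and that of Dusp1 also without young control pool 3. In antibiotic pools 12 of 62 passed, 11 higher and 1 lower, beside 6.15% of all genes. The largest were Tnf (1.18, limma adjusted p = 0.000504), Ccl5 (0.94, limma adjusted p = 0.00333), the cytokine Il1b (0.79, limma adjusted p = 0.0386), the chemokines Ccl3 (0.74, limma adjusted p = 0.00483) and Ccl4 (0.58, limma adjusted p = 0.0312), and Tlr2. The Il1b call was lost without young antibiotic pool 1 or 2 or aged antibiotic pool 2 (adjusted p 0.0873 to 0.197), and the Ccl4 call without young antibiotic pool 1 or 3 or aged antibiotic pool 2 or 3 (0.110 to 0.157). Tnf went from 1.14 ± 0.288 to 2.63 ± 0.560 per microglia. The median of the 13 induced genes was 0.58 there and 0.50 in controls, against 0.03 and 0.02 for all genes.

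Outside microglia only BAM, BCells and Ly6CLow cells had enough cells for the test, which required at least 2 pools per group with 20 or more cells. The 9 members tested in BAM, 7 in BCells and 8 in Ly6CLow cells gave a single call over all 6 comparisons. Few genes of any kind were called there: at most 0.406% in BAM, 0.0595% in BCells and 1.95% in Ly6CLow cells. In Ly6CLow cells 0 members passed for age, beside 0.755% of all genes in controls and 1.95% under antibiotics. The call was Tlr2 in BAM, aged minus young under antibiotics. It measured 0.806, 0.879 and 1.12 in young antibiotic pools and 1.85, 1.73 and 1.64 in aged antibiotic pools. The groups did not overlap, like those of 13.7% of all genes, and the log2 difference was 0.87 (SE 0.190, limma adjusted p = 0.0346), beside 36 of 8870 genes called, or 0.406%, and a median of -0.15 for all genes. It was lost with no filter (adjusted p = 0.0582), a pseudocount of 0.5 (0.0602), pools of at least 10 cells (0.0679) and without young antibiotic pool 1 (0.0984) or 2 (0.133) or any 1 of the 3 aged antibiotic pools (0.0839 to 0.167). In controls Tlr2 in BAM was 1.36 and 1.42 in the 2 young pools fitted and 2.14, 1.55 and 1.90 in the aged pools, with a log2 difference of 0.40 (SE 0.213, limma adjusted p = 0.851) beside 0.0338% of genes called. Young control pool 2, with 17 BAM, was left out. The 7 microglia markers, all above 0 in BAM, summed to 37.7 in young antibiotic and 21.7 in aged antibiotic BAM (pools 27.2 to 49.1 and 17.9 to 27.3), and their part was not tested.

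**Figure D5:**
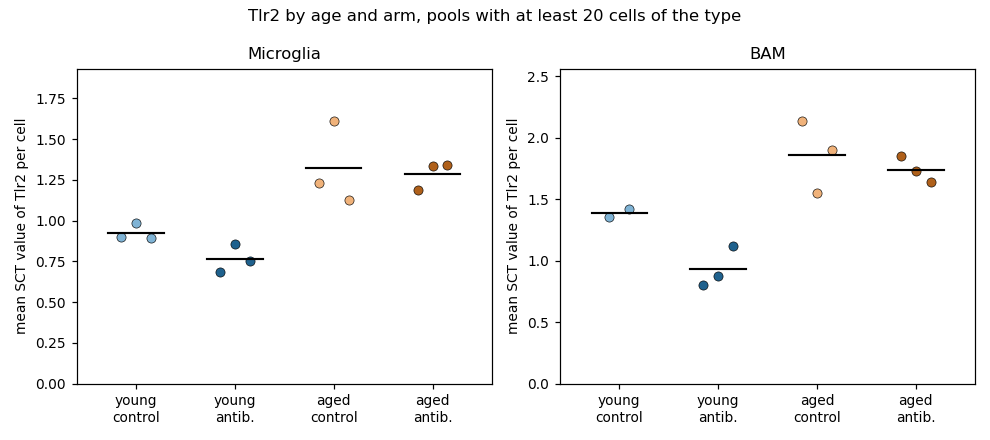
Mean SCT value of Tlr2 per cell (vertical axis, from 0) in microglia and in BAM, by group (horizontal axis), with 1 point per pool of at least 20 cells and lines for the means. In both cell types the aged pools lie above the young pools of the same arm.

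The lipopolysaccharide pair was not called in BAM. For antibiotic minus control in the aged, where 0.158% of genes were called in BAM, Tlr4 had a log2 difference of -0.47 (SE 0.298, limma adjusted p = 0.696) on 33 to 62 cells per pool. Ly96 in BAM had a mean log2 difference over both ages of -0.04 (SE 0.186, limma adjusted p = 0.979). With an SE of 0.186, a difference of the size seen for Ly96 in microglia could not be told from 0 in BAM, and whether the 2 cell types differ was not tested.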

How the data were processed

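RNA, surface antibody and hashtag libraries were made from 24 mice in 12 pools, 3 per group. Per the submitters' processing notes, Cell Ranger 3.0.2, Seurat 3.0.1 and the build mm10 were used. The RNA table deposited by the authors is a normalized score: SCT-corrected UMI values, whole numbers whose sum equals the listed SCT total in 13052 of 13052 cells and the raw total in 62. Raw UMI counts per cell were deposited by the authors as metadata and were used only for depth; raw counts per gene are not analysed here, and the covariates of the correction are not given in the sources used here. The deposited metadata class 13052 of 13052 cells as hashtag singlets, and doublets were filtered no further; doublets of cells with the same hashtag are not found that way. Of 40 metadata columns, 34 were not used. The antibody table was not used, as it names no member.

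Values were averaged per pool and type. limma 3.58.1 (R 4.3.3; checked on simulated data) was fitted to log2(mean + 0.05) for genes with a mean of at least 0.05, with a trended prior variance and one fit per type over its pools; a fold change on this scale understates that of low genes. The comparisons were adjusted by Benjamini-Hochberg within type and comparison, with a threshold of 0.05. Pools under 20 cells were left out (young control 2 for BAM, young antibiotic 2 for BCells). Pools are the replicates, and p-values measure the spread between pools. Shares above 0 used an exact permutation test, adjusted over all genes tested instead of over the members as first planned. Named were all members, up to 6 pathway genes per comparison with the largest called change, the nearest genes by correlation, and members called in other types. Alternatives varied the pseudocount, filter, scaling, depth, prior, pools fitted and each pool left out. The members, lists and tests were chosen with earlier results of these data known.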

Additional observations from a re-analysis of the deposited data

How the results depend on the processing

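Of 1204 alternative values of log2 changes, 1057 kept direction and side of the threshold, 132 lost a call and 15 gained one, and none changed sign; changes smaller than their SE were left out of this tally. Of 272 alternative counts, 228 stayed within 1.5 times. With no filter, members called in microglia were 1 in the aged with antibiotics, 1 over both ages and 0 for age in controls, and pathway genes 4, 3 and 1, with 6 for age under antibiotics; more genes were then tested. Members over both ages were 1 with a pseudocount of 0.5, 1 with no trend and 4 with cells of at least 2000 raw UMIs, where age under antibiotics gave 5. Pathway genes were 5 over both ages with no trend, 1 in the young and 10 for age in controls with per-cell log values, and 11 for age in controls with only the pools compared. In other types the single member called became 0 with no filter, with pools of at least 10 cells and with a pseudocount of 0.5. Leaving out each pool gave 1 to 3 members in the aged, 1 to 2 over both ages, 0 to 1 for age in controls and 1 to 4 for age under antibiotics, with 4 to 8, 4 to 9, 2 to 9 and 6 to 14 pathway genes; the young and the difference of differences stayed at 0. The mean difference in the share of microglia above 0 changed sign for Tlr1 (-0.103 points) and Tlr3 (0.706) when a value of at least 2 was required, and ranged over pools left out from -0.0698 to 0.630 for Tlr1 and from -0.0421 to 0.276 for Tlr9. The type with the highest level was the same for 10 of 10 members with deep cells or larger pools, alternatives added after seeing the data. The counts of members and pathway genes above are given without the number of all genes called in the same setting. That number was counted in each setting but is not printed here. From the counts above alone, a shift in members or pathway genes cannot be told from a shift in all genes. Where a call changed, the cause was not tested. No paired analysis was possible because the hashtag numbers of the arms differ and no label ties a control pool to an antibiotic pool. Tlr9, above 0 in 1.53% of microglia, was too low to test, and pools held 17 to 62 BAM against 475 to 1186 microglia.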

Other observations

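Il1a, a cytokine gene induced by Toll-like receptor signals, fell with antibiotics in aged border macrophages. It measured 1.35, 0.825 and 0.935 in aged control pools and 0.182, 0.295 and 0.220 in aged antibiotic pools, without overlap, as for 14.5% of all genes (log2 -1.93, SE 0.326, limma adjusted p = 0.008, beside 0.158% of genes called). It passed under 13 of 16 alternatives, added after seeing the data, and was lost without aged control pool 1 (adjusted p = 0.0843) or aged antibiotic pool 1 (0.0509) and with pools of at least 10 cells (0.179). Aged antibiotic BAM were also below young antibiotic BAM, at 0.528, 0.939 and 0.810 (log2 -1.50, limma adjusted p = 0.0346), a call lost in 8 of 16 alternatives, among them the leaving out of young antibiotic pool 2 or 3 or any 1 of the aged antibiotic pools (adjusted p 0.0781 to 0.177). The young control pools fitted had 0.256 and 0.982, and the pool left out, with 17 cells, 3.00. The difference of differences for Il1a did not pass (log2 -2.42, SE 0.489, limma adjusted p = 0.113). The 7 microglia markers summed to 39.2 in aged control and 21.7 in aged antibiotic BAM, and their part was not tested. Tnf in BAM was lower with antibiotics over both ages, at a log2 difference of -1.03 (SE 0.200, limma adjusted p = 0.0551), the lowest adjusted p of that comparison, in which no gene passed and 585 had an unadjusted p under 0.05.

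In Ly6CLow cells, Ccl2 was lower in aged than in young controls (log2 -1.32, SE 0.237, limma adjusted p = 0.0122, beside 0.755% of genes called and a median of -0.21 for all genes), where in microglia it was higher. The call was lost without young control pool 1 (adjusted p = 0.0709) or aged control pool 1 (0.0802). With cells of at least 2000 raw UMIs the value was -0.90 and did not pass (adjusted p = 0.955); cells under that depth made up 4.70% of young control and 32.1% of aged control Ly6CLow cells. The difference between the cell types was not tested.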
